A study of Mus musculus with 2 samples.

Results

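The genes described are the 9 mouse rows for high mobility group (HMG) chromatin proteins, Hmga1, Hmga2, Hmgb1, Hmgb2, Hmgb3, Hmgn1, Hmgn2, Hmgn3 and Hmgn5, chosen by name from the 19144 gene rows of the count table. The cells came from neurospheres, floating balls of cells grown from neural progenitors, made from the forebrain of CD1 mouse embryos (tissue around the lateral ventricles, embryonic day not given in the labels) and plated with 10 ng/mL leukemia inhibitory factor (LIF), the condition for primitive neural stem cells. Spheres of at least 50 µm were scored after 7 to 10 days, dissociated and captured by Drop-seq, which tags each messenger RNA near its 3′ end with a cell barcode and a unique molecular identifier (UMI), with 60000 reads per cell planned. The labels give 2 samples of 1 group (CD1 genotype, LIF, no other treatment), and the series text speaks of nuclei where the protocols speak of dissociated spheres. Barcodes carry no sample name, and all of them together count here as 1 sample: no p-value is given, and every interval is a 95% interval that covers counting error only.

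HMG proteins are among the most abundant non-histone proteins of chromatin and fall into 3 families. HMGA proteins bind the minor groove of AT-rich DNA with AT-hooks, and Hmga2 is known for its high level in fetal neural stem cells and for repression of the Ink4a/Arf locus, which limits self-renewal. HMGB proteins bind and bend DNA with HMG boxes, and HMGN proteins bind the nucleosome core itself, where they compete with linker histone H1. Hmgb2 is a well-known gene of dividing cells, including neural progenitors.

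In the GRCm38 assembly (GENCODE M21), all 9 are protein-coding genes. Hmga1 lies on chr17:27556497-27563674 and Hmga2 on chr10:120361275-120476469. Hmgb1 lies on chr5:149046702-149184489, Hmgb2 on chr8:57511907-57515999 and Hmgb3 on chrX:71555918-71560676. Hmgn1 lies on chr16:96120618-96127729, Hmgn2 on chr4:133964738-133968650, Hmgn3 on chr9:83109948-83146685 and Hmgn5 on chrX:109004534-109013404.

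Promoter sequence is shown for the 2 members with the most cell-cycle motifs, Hmgb2 and Hmgb3, and for Hmga2, which had none and whose level lay on the other side in the phase comparisons. Each run is the 250 bases before the RefSeq start site (GRCm38.p6), 5′ to 3′ on the gene's strand. Capitals mark the CCAAT box (CCAAT, or ATTGG on the other strand) and the core of the cell cycle genes homology region, CHR (TTTGAA or TTCGAA, searched on both strands).
Hmgb2, chr8:57511593-57511842, plus strand: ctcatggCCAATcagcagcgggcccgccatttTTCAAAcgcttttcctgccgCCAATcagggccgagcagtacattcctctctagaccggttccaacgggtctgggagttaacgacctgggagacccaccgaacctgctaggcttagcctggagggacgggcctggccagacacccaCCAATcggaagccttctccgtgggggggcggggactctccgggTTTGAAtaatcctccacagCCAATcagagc
Hmgb3, chrX:71555667-71555916, plus strand: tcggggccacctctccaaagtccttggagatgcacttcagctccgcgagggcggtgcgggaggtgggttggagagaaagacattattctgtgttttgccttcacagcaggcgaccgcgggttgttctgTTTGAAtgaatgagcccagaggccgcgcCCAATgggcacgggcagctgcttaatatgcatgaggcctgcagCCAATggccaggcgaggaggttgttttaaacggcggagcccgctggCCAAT
Hmga2, chr10:120476470-120476719, minus strand: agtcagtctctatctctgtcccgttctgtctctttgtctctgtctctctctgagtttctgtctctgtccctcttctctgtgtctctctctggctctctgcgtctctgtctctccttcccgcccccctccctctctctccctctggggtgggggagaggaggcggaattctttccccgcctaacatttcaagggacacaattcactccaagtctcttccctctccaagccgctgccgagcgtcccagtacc

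The Hmgb2 stretch held 4 CCAAT boxes and 2 CHR cores, and that of Hmgb3 held 3 CCAAT boxes and 1 CHR core. Among 32851 promoter stretches of the same length, 33.8% held a CCAAT box, 0.840% held at least 4, 17.1% held a CHR core, and 0.451% held at least 3 CCAAT boxes together with a CHR core. Of the other members, Hmgb1 had 3 CCAAT boxes at its first start site and none at its second, Hmgn1 and Hmgn5 had 2 each, and Hmgn2 and Hmga1 had none, all without a CHR core. None of the 8 members with an entry held the E2F words searched (TTTCCCGC, TTTCGCGC, TTTGCCGC and TTTGGCGC, both strands), which 1.86% of promoters held. Hmgn3 has no entry in the promoter table. A match of letters is a description of sequence, not a site that was shown to be bound. Hmgn2, without any of these motifs, was higher in cells high in G2/M genes (below), and a tie of motifs to level was not tested.

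HMG genes are known for processed pseudogenes, copies of the spliced mRNA elsewhere in the genome, which matter here because a read that fits 2 places equally may be dropped or counted in another row. Annotated loci with at least 200 bases at 85% identity or more to the transcript were counted for 8 of the members and numbered 144 for Hmgb1 (142 of them pseudogenes, 44 at 95% identity or more), 29 for Hmgn2, 17 for Hmgb3, 13 for Hmgb2, 9 for Hmgn1, 3 for Hmgn5, 1 for Hmga2 and 0 for Hmgn3. The first 60 coding bases of the 2 genes with the most copies are shown beside their closest copies, with the base that differs in capitals.
Hmgb1: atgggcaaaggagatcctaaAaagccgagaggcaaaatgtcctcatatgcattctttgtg
Gm15387, on chr15:74093686-74094333: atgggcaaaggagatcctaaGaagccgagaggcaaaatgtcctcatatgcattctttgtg
Hmgn2: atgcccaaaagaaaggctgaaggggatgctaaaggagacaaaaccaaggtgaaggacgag
Gm10182, on chr9:22321105-22321377: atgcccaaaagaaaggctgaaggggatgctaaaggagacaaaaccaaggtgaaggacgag

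Gm15387 matched Hmgb1 at 99.8% identity with 1 mismatch in this stretch, and Gm10182 matched Hmgn2 with 0 mismatches here. For 3′-tag counts the end of the transcript matters most. In the last 500 bases of the longest annotated transcript, 65.6% of 50-base windows of Hmgn2 occurred unchanged at another annotated locus, against 2.0% for Hmgb3 and 0 for Hmga2, Hmgb1, Hmgb2, Hmgn1, Hmgn3 and Hmgn5. Of 10020 genes compared in this way, 91.9% had no shared window. Hmgb1 has shorter annotated transcripts that end inside the copied part, with 65.4% of the last windows shared in the transcript of 1720 bases and 90.9% in that of 1092 bases. Its level therefore depends on which 3′ end is used, which these counts do not show, and the levels of Hmga1 and Hmgn2 may miss reads with more than 1 location.

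Several copies had rows of their own. Gm6104, a pseudogene with 99.5% identity to Hmgb3, held 660 UMIs beside 3142 for Hmgb3, or 17.4% (16.2 to 18.6%) of their sum. That share was 18.9% (16.2 to 21.9%) in cells low in cycle genes, 16.3% (13.9 to 19.1%) in S-high cells and 17.8% (15.9 to 19.9%) in G2/M-high cells, ranges defined below. The intervals overlap, so no difference in this share between the ranges was resolved, and they are too wide to show that it was constant. For Hmgn2 (813 UMIs) the rows Gm10282, Gm16494 and Gm6594 held 30, 32 and 22 UMIs. Values for Hmga1, Hmgn2, Hmgb1 and Hmgb3 are accordingly uncertain in level.

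Of 4000 barcodes, 235 were left out for fewer than 500 genes or more than 10% mitochondrial UMIs, and 3765 were kept, with 17395968 UMIs and a median of 3869 per cell (range 638 to 54060). The cells carried neural stem cell markers at a summed 19292 CPM (UMIs per 1000000 UMIs of the cells in question), against 2021 for the oligodendrocyte precursor list, 1835 for the astrocyte list, 1001 for 14 listed immature neuron markers, 716 for intermediate progenitors, 10.7 for endothelium and 0.747 for microglia. An unread last base (N) occurs in 285 of the deposited barcodes, and 25 barcode pairs are 1 base apart.

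All 9 HMG genes together took 34628 UMIs, 1991 CPM, or 0.199% of the total. The HMGN family accounted for 1297 CPM, the HMGB family for 657 CPM and the HMGA family for 35.9 CPM. UMIs of 3′ tags do not grow with transcript length, so these levels can be ordered, within the limits set by the copies. Hmgn1 was the most abundant at 760 CPM (747 to 773), rank 159 of all genes, with 3.51 UMIs per cell. Hmgb2 followed at 321 CPM (313 to 330), then Hmgn3 at 248 (240 to 255) and Hmgn5 at 243 (236 to 250), whose intervals overlap. Hmgb3 was at 181 CPM (174 to 187), Hmgb1 at 156 (150 to 162), Hmgn2 at 46.7 (43.6 to 50.1), Hmga2 at 22.9 (20.7 to 25.3) and Hmga1 at 13.0 (11.4 to 14.8). Hmga2, the family member best known from fetal neural stem cells, thus ranked 6300 among all genes, with a UMI in 279 of the 3765 cells.

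The cell cycle was read from each cell's share of UMIs in 44 listed S-phase genes and 55 listed G2/M genes, none of them an HMG gene, in the 3576 cells with at least 1000 UMIs. G2/M-high cells (894) had a G2/M share in the top 25%, S-high cells (728) had an S share in the top 25% and a G2/M share below its own cut, and low-cycle cells (1276) were below the median in both. These are ranges on a continuum, not cell types: 230 cells lay within 10% of the G2/M cut, 314 within 10% of the S cut, and 255 and 261 within 10% of the 2 medians. Depth moved with the ranges, with a median of 3578.5 UMIs in low-cycle, 4378.5 in S-high and 4977 in G2/M-high cells, as did the mitochondrial share (3.41, 2.90 and 2.62%), and their part in the results was not tested. Levels are given in CPM.

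Hmgb2 stood far apart from its relatives in its tie to the cycle. It was counted 237 times in low-cycle cells (45.2 CPM), 1105 times in S-high cells (305 CPM) and 3336 times in G2/M-high cells (627 CPM). The ratio of G2/M-high to low-cycle cells was 13.9 (12.2 to 15.9) and that of S-high to low-cycle cells 6.76 (5.87 to 7.81), and the G2/M-high level was 2.05 times the S-high level (1.92 to 2.20). G2/M-high cells made up 23.7% of the cells and 30.6% of the UMIs, and they held 59.7% of all Hmgb2 UMIs (58.4 to 61.0%), while low-cycle cells held 4.24%. With every cell thinned to 1000 UMIs, 44.1% of G2/M-high and 3.76% of low-cycle cells had an Hmgb2 UMI. No cell type known to lack Hmgb2 was at hand to set the level of free RNA in droplets.

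Of the other 2 HMG-box members, Hmgb1 and Hmgb3 followed the same order at a smaller scale. Hmgb3 was at 118 CPM in low-cycle, 187 in S-high and 229 in G2/M-high cells, with ratios to low-cycle cells of 1.59 (1.42 to 1.77) in S-high and 1.95 (1.77 to 2.15) in G2/M-high cells. Hmgb1, also known as a danger signal once released from cells, was at 112, 154 and 197 CPM, with a G2/M-high ratio of 1.76 (1.59 to 1.95). The Hmgb3 pseudogene row Gm6104 gave 1.81 (1.48 to 2.24) in the same comparison, close to Hmgb3 itself.

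The HMGN genes differed from each other in direction. Hmgn2 was at 29.5 CPM in low-cycle cells, 48.9 in S-high and 64.6 in G2/M-high cells, a G2/M-high ratio of 2.19 (1.80 to 2.66). Hmgn5, which carries a long acidic tail, was at 201, 225 and 290 CPM, a ratio of 1.44 (1.33 to 1.56). Hmgn1 was at 653, 826 and 822 CPM, a ratio of 1.26 with an upper bound of 1.32, so the most abundant HMG gene stayed within the fold of 1.5 used below. Hmgn3 lay on the other side, at 278 CPM in low-cycle, 227 in S-high and 233 in G2/M-high cells, a ratio of 0.84 (0.78 to 0.90).

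Hmga2 also lay on the low side in cycling cells, with 172 UMIs in low-cycle cells (32.8 CPM), 79 in S-high cells (21.8 CPM) and 101 in G2/M-high cells (19.0 CPM). Its G2/M-high ratio was 0.58 (0.45 to 0.74), whose interval ends above 1/1.5, so it is not counted as lower under the rule given below. Its low-cycle level was above that of both other ranges by more than the counting error. Hmga1 had 57, 57 and 71 UMIs, or 10.9, 15.7 and 13.3 CPM, and its ratio of 1.23 (0.86 to 1.77) includes 1.

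**Figure D1:**
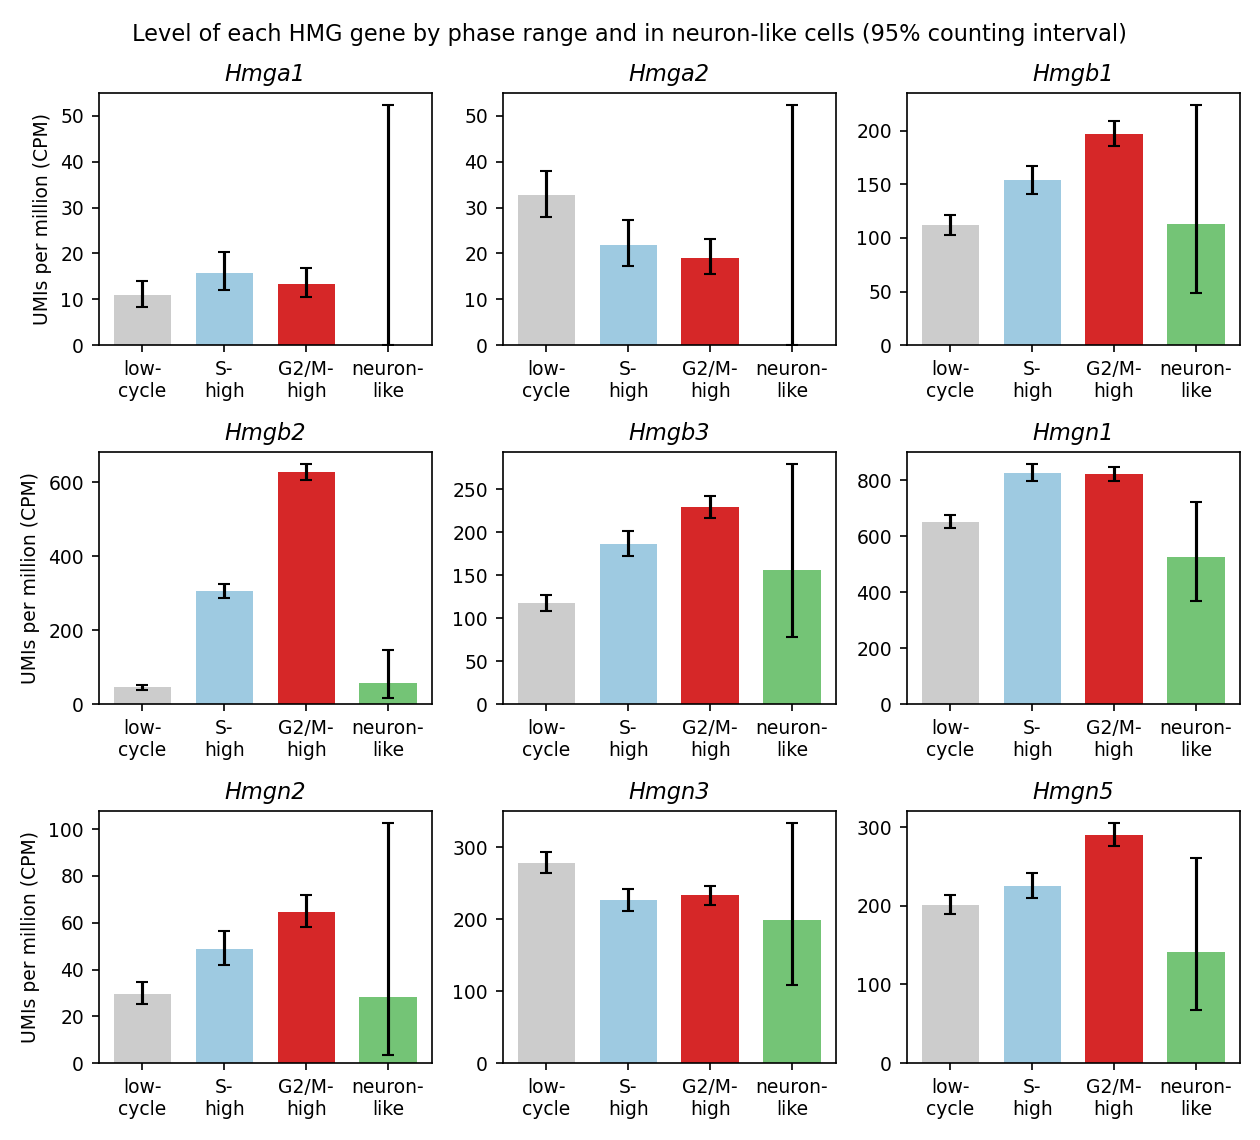
Level of each HMG gene in CPM (y axis, from 0, its own scale in each panel) in low-cycle, S-high, G2/M-high and neuron-like cells, with 95% counting intervals as error bars. Hmgb2 goes from 45.2 in low-cycle to 627 CPM in G2/M-high cells, whereas Hmga2 and Hmgn3 are highest in low-cycle cells, and the neuron-like bars rest on 30 cells.

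A gene was counted as past the fold when its whole interval lay above 1.5 or below 1/1.5, among genes with at least 50 UMIs in the cells compared, a minimum that all 9 members met in each of the comparisons. Between G2/M-high and low-cycle cells 4 of 9 members were higher (Hmgb1, Hmgb2, Hmgb3 and Hmgn2) and 0 lower, against 5.89% higher and 3.95% lower among the 10285 genes tested. The median ratio was 1.44 over the members and 0.943 over all genes. Between S-high and low-cycle cells 1 of 9 was higher (Hmgb2) and 0 lower, against 5.67% and 2.09% of 9989 genes, with medians of 1.37 and 0.958. Both comparisons share the low-cycle cells. Between G2/M-high and S-high cells, a comparison added after the data were seen, 1 of 9 was higher (Hmgb2) and 0 lower, against 1.98% and 1.11% of 9772 genes. When phase shares and counts were both taken from cells thinned to 1000 UMIs, 2 members remained past the fold in G2/M-high cells, Hmgb2 and Hmgn2. Hmgb1 was then at 1.49 and Hmgb3 at 1.62. The share of all genes past the fold after thinning is not given here, so this fall is not shown to be particular to the members.

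Other chromatin genes from lists set up beside the members give the setting. The linker histones, whose binding HMGN and HMGB proteins weaken, were higher in G2/M-high cells for 4 of 4 measured genes, with H1f0 at 2.02 (1.81 to 2.25), H1fx at 2.62 (2.16 to 3.20), Hist1h1c at 1.92 (1.64 to 2.27) and Hist1h1e at 2.72 (1.81 to 4.18). Most replication-dependent histone mRNAs lack a poly(A) tail, so the last 2 may be counted in part only. Among 16 other genes with HMG boxes, 2 were higher and 0 lower: Ssrp1, a subunit of the histone chaperone FACT, at 1.84 (1.72 to 1.98), and Hmgxb4 at 1.79 (1.52 to 2.12). Among 18 further abundant chromatin proteins 6 were higher and 0 lower, led by the histone variant H2afx at 7.84 (7.01 to 8.80) and by Dek, a chromatin protein that binds DNA structure, at 3.80 (3.55 to 4.08). The FACT partner of Ssrp1, Supt16, was at 1.77 (1.64 to 1.91). In these lists no measured gene reached the Hmgb2 ratio of 13.9.

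In S-high against low-cycle cells, 3 of 4 linker histones, 4 of 18 further chromatin proteins and 1 of 15 HMG-box relatives were higher. Dek was at 4.35 (4.06 to 4.68), H2afx was at 3.16 (2.78 to 3.60), and Hbp1, an HMG-box repressor of cycle genes, was the only HMG-box relative lower, at 0.40 (0.28 to 0.56). Between G2/M-high and S-high cells H2afx was higher at 2.48 (2.29 to 2.69), and Dek was at 0.87 (0.83 to 0.92), within the fold.

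**Figure D2:**
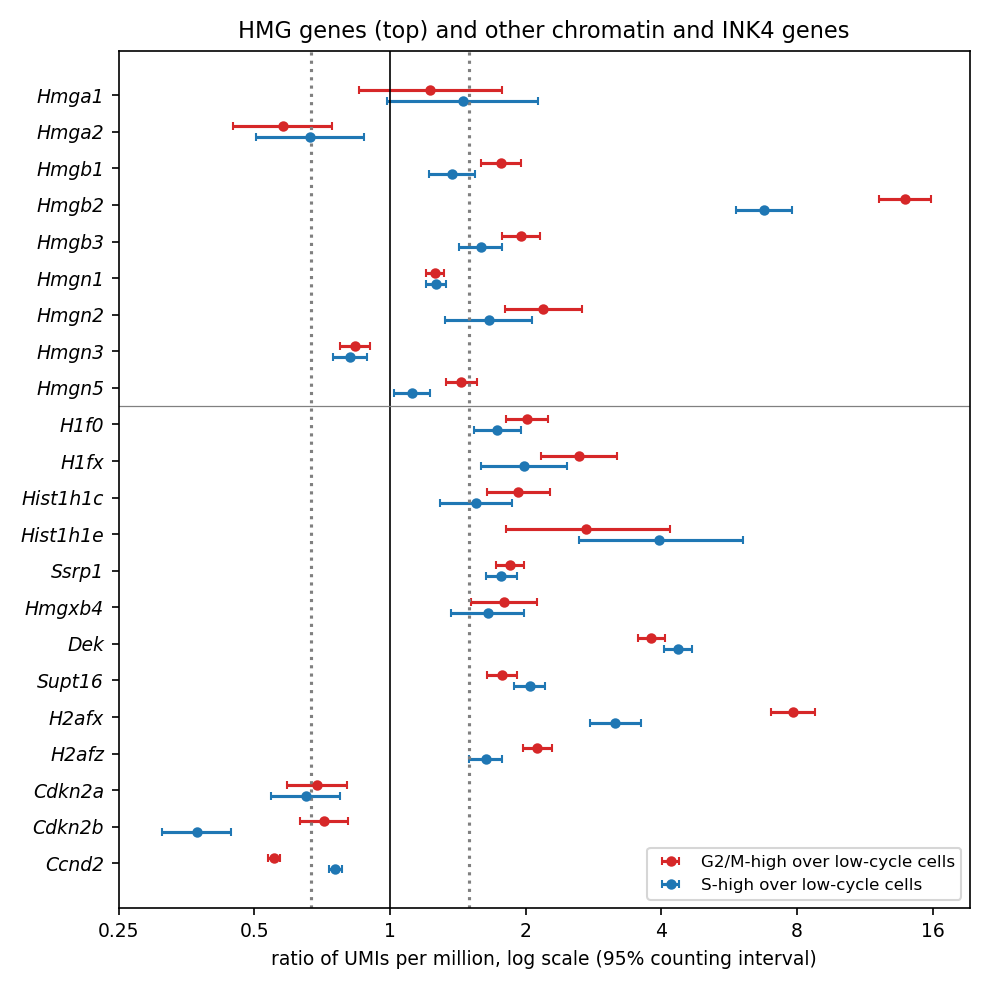
Ratio of CPM (x axis, log scale) in G2/M-high (red) and S-high (blue) over low-cycle cells, with 95% counting intervals, for the 9 HMG genes above the line and for other chromatin and INK4 genes below it, the latter chosen for display after their values were seen. Dotted lines mark 1.5 and 1/1.5, and Hmgb2 lies farthest to the right at 13.9 and 6.76.

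The genes tied to Hmga2 in self-renewal were set beside it. Cdkn2a, which encodes p16 and p19Arf, was at 79.8 CPM in low-cycle, 51.9 in S-high and 55.0 in G2/M-high cells, and Cdkn2b, which encodes p15, at 120, 44.8 and 86.0 CPM. Cdkn2b was lower in S-high cells, at 0.37 (0.31 to 0.44), and Ccnd2, the D-type cyclin of forebrain progenitors, was lower in G2/M-high cells, at 0.55 (0.54 to 0.57). Of 6 measured genes in this list, 0 were higher and 1 lower in each of the 2 ranges. Hmga2, Cdkn2a and Cdkn2b all had their highest level in the low-cycle range. Of the mRNA-binding partners, Igf2bp2 was at 29.3 CPM and Igf2bp3 at 67.8 CPM in low-cycle cells, neither past the fold in G2/M-high or S-high cells. Lin28b, which blocks the let-7 microRNAs that repress Hmga2, and Igf2bp1 were under the 50-UMI minimum.

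Sorting the 3576 cells by G2/M share into 5 bins of equal size gave the levels in steps. Hmgb2 was at 39.1, 76.0, 222, 458 and 646 CPM from bin 1, the lowest, to bin 5. By S share it was at 46.3, 168, 462, 474 and 349 CPM, highest in bins 3 and 4. Hmgn2 went from 22.2 to 64.5 CPM and Hmgb3 from 100 to 230 CPM between the end bins of the G2/M share, and Hmgn1 from 591 to 822 CPM. Hmga2 was at 37.4, 28.0, 20.7, 14.8 and 17.7 CPM, and Hmgn3 at 275 CPM in the lowest and 230 CPM in the highest bin.

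**Figure D3:**
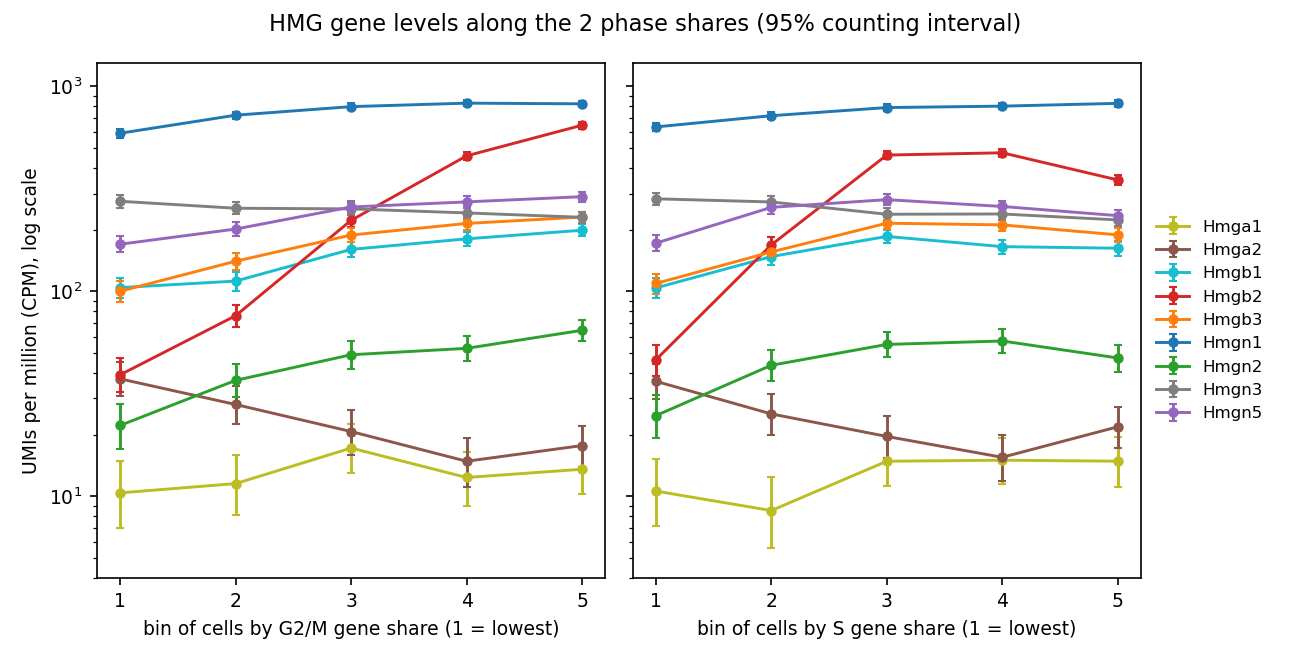
Level of each HMG gene in CPM (y axis, log scale) in 5 equal bins of cells ordered by G2/M gene share (left) and by S gene share (right), with 95% counting intervals. Along the G2/M share Hmgb2 climbs from 39.1 to 646 CPM past 4 other members, and Hmga2 declines from 37.4 to 17.7 CPM.

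Because the 2 shares overlap in cells, the bins were also crossed, a view added after the data were seen. In the lowest bin of G2/M share, Hmgb2 was at 29.4 CPM (21.6 to 39.0) in the lowest bin of S share, 33.1 in the next, and 73.9 and 74.9 in the following 2, while the highest held only 15 cells and 9 Hmgb2 UMIs. In the second bin of G2/M share it was at 34.9 CPM (23.7 to 49.5) in the lowest bin of S share and at 181 CPM (138 to 233) in the highest. In the highest bin of G2/M share, Hmgb2 was between 623 and 670 CPM in the upper 4 bins of S share, and the lowest bin held only 5 cells. In bin 4 of G2/M share it was at 358 CPM (302 to 423) in bin 2 of S share, 527 (486 to 571) in bin 4 and 422 (389 to 457) in bin 5. So Hmgb2 was higher with S genes where G2/M genes were low, by more than the counting error. In the highest bin of G2/M share it varied little with S genes. Within G2/M-high cells split at their median S share it was also close on both sides, at 633 CPM above and 620 CPM below it. Across that split 0 of 9 members were past the fold, against 0.616% higher and 0.0814% lower of 8599 genes. Over the squares with at least 20 cells, Hmgb3 spanned a narrower range, from 89.9 CPM (75.8 to 106) where both shares were lowest to 267 CPM (228 to 311) in bin 3 of S share and bin 4 of G2/M share. Where both shares were highest it was at 223 CPM (171 to 284).

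**Figure D4:**
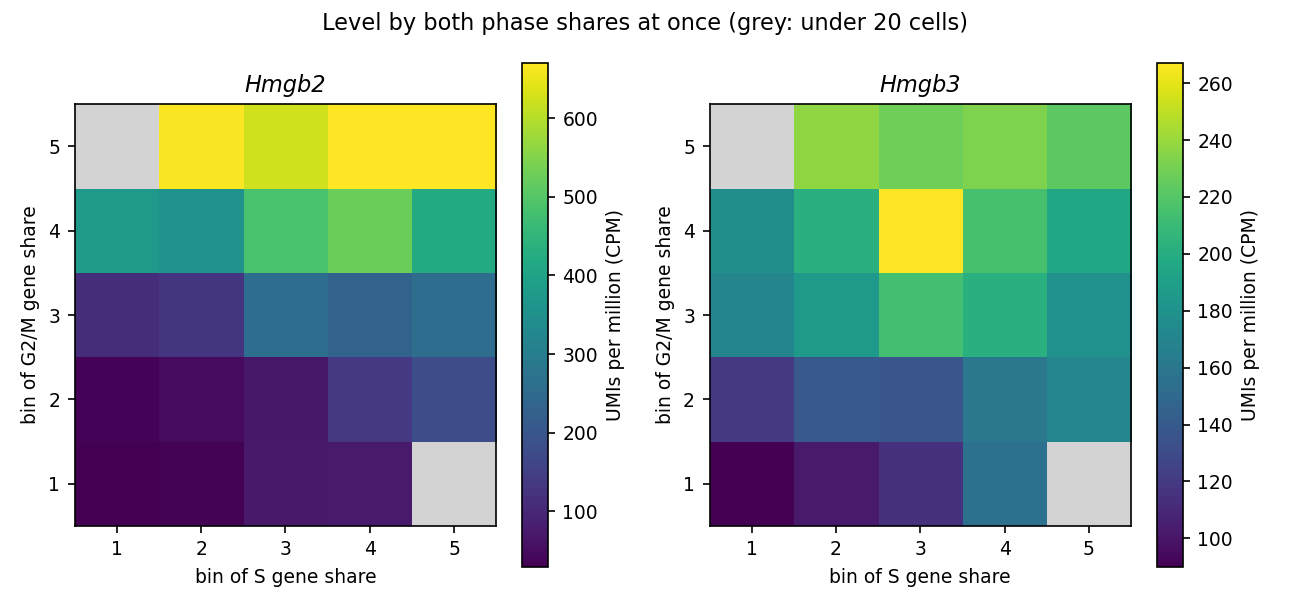
Level of Hmgb2 (left) and Hmgb3 (right) in CPM, as colour on a separate scale for each gene, for the 3576 cells with at least 1000 UMIs, in 5 bins of S gene share (x axis) and of G2/M gene share (y axis). Squares with under 20 cells are grey, and Hmgb2 goes from 29.4 CPM at lower left to 668 CPM at upper right.

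Neuron-like cells were a cluster of 30 cells found without HMG, S or G2/M genes. The name required at least 3, and most, of the measured immature neuron markers to be past the fold. It also required more of that list than of any other among the 10 leading genes. The marker values are therefore the ground of the name, not separate support for it. In the cluster 11 of 13 measured immature neuron markers were past the fold. That list summed to 8476 CPM against 970 in the other 3735 cells, and the neural stem cell list to 5811 against 19347 CPM. Its 10 leading genes include Tubb3, Stmn2 and Celf4. The cells were shallower, with a median of 1790.5 UMIs against 3887, and 23 of the 30 were in the low-cycle range. Depth as a part of what follows was not tested.

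Hmgb2 was the member most clearly lower in neuron-like cells, with 4 UMIs or 56.7 CPM (15.4 to 145) against 322 CPM elsewhere, a ratio of 0.18 (0.05 to 0.45). Hmgn1 had 37 UMIs or 524 CPM against 761, a ratio of 0.69 (0.49 to 0.95) that stays within the fold. Hmgb1 had 8 UMIs (113 CPM), Hmgb3 11 (156 CPM), Hmgn3 14 (198 CPM), Hmgn5 10 (142 CPM) and Hmgn2 2 (28.3 CPM), and the interval of each of these ratios includes 1. Hmga1 and Hmga2 had 0 UMIs, and since 3 counts would be 42.5 CPM, above their level elsewhere, a difference was not detectable at this depth.

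In all, 1 of 9 members was lower (Hmgb2) and 0 higher in neuron-like cells, against 1.58% lower and 5.38% higher of 11057 genes. The median ratio was 0.606 over the members and 0.840 over all genes, both with genes at 0 UMIs kept at 0. With the 2 members at 0 UMIs set to 3 counts, the member median was 0.727. That floor was not applied to the other genes, so 0.727 has no matching value over all genes. Against the 1253 low-cycle cells outside the cluster, 0 of 9 members were higher or lower, against 4.61% and 1.64% of 8787 genes. With 0 to 37 UMIs for each member in the neuron-like cells, the intervals are wide, and these counts do not show that the other members were alike. There Hmgb2 was at 56.7 against 45.1 CPM, a ratio of 1.26 (0.34 to 3.26), and Hmgn1 at 524 against 654 CPM, a ratio of 0.80 (0.56 to 1.11). The Hmgb2 level of neuron-like cells was thus not shown to differ from that of low-cycle cells in either direction. The interval, from 4 UMIs, is too wide to call the levels alike. Of the companion genes, the linker histone Hist1h1c was higher against both groups, at 3.47 (1.93 to 5.74) and 5.08 (2.80 to 8.57). Ccnd2 was lower against both, at 0.42 (0.30 to 0.56) and 0.32 (0.23 to 0.43). In its list of genes tied to Hmga2, 1 of 6 measured genes was lower against all other cells. Against low-cycle cells 3 of 6 were lower, and 0 were higher in either comparison. Of the HMG-box relatives, 1 of 16 was higher against all other cells. Dek and Npm1, a nucleolar histone chaperone, were lower against all other cells only, at 0.40 (0.23 to 0.66) and 0.44 (0.30 to 0.62).

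A looser choice, cells with UMIs for at least 4 immature neuron markers, took 242 cells with a median of 6375 UMIs. In them the immature neuron list summed to 1797 CPM, against 903 in the other cells. The neural stem cell list summed to 18731 against 19361 CPM, and the G2/M list to 10205 against 9828 CPM. By these lists they were mostly like the other cells, and they are not called neuron-like. Hmgb2 was at 304 CPM in them, a ratio of 0.94 to all other cells. In this comparison 0 members were past the fold, and the share over all genes is not given here. The median depth of these cells was above that of the rest, and the count for Hmgb2 in neuron-like cells rests on the 30-cell cluster.

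Across the 10 clusters, which are descriptions and not types except for the neuron-like one, Hmgb2 was highest in cluster 3 at 626 CPM (led by the mitotic genes Aurka, Ccnb1 and Ube2c, 555 of its 598 cells G2/M-high) and lowest in the neuron-like cluster at 56.7 CPM. Hmgb1, Hmgb3, Hmgn1 and Hmgn5 were highest in cluster 2, at 193, 247, 915 and 340 CPM. Its cells were shallow, with a median of 2111 UMIs. Hmgb1 and Hmgb3 were lowest in cluster 4, at 102 and 106 CPM, where 422 of 590 cells were low-cycle and Hmga2 was at 43.9 CPM from 152 UMIs. Hmgn3 was highest in cluster 6 at 339 CPM (292 to 392), led by Bnip3, Ankrd37 and Ndrg1, genes known from hypoxia. Hmga2 was highest in cluster 9 at 104 CPM (56.9 to 175), from 14 UMIs. Hmgn1, Hmgn2 and Hmgn5 were lowest there, at 305, 14.9 and 81.8 CPM. The Hmgn2 value rests on 2 UMIs (1.80 to 53.7 CPM), an interval that includes its level of 46.7 CPM over all cells. Cluster 9 had a median of 936 UMIs, 5.30% mitochondrial and 3.13% ribosomal protein UMIs against 3.03 and 8.59% over all cells, and Malat1, a nuclear RNA, among its leading genes. The part of RNA quality in the cluster 9 values was not tested. Without any cluster choice, Hmga2 still had 43.1% (38.2 to 48.1%) of its UMIs in low-cycle cells, which held 30.2% of all UMIs. Clusters 5, 6 and 7 were also mostly low-cycle, and there Hmga2 was at 17.6, 14.6 and 25.9 CPM. Its high level in cluster 4 was thus not shared by all clusters rich in low-cycle cells. Intermediate cells, which fell in none of the named ranges, held 10.5% (7.69 to 14.0%) of Hmga2 UMIs and 17.5% of all UMIs.

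Cell-to-cell spread was measured as the Fano factor, the variance over the mean, in the 3576 cells thinned to 1000 UMIs each, where pure counting noise gives 1. It was ranked by its ratio to a curve fitted over the 8727 genes with a mean of at least 0.01 UMI. Hmgb2 had a Fano factor of 1.31, rank 143 (percentile 98.4). Hmgn5 came next at 1.23, rank 291 (percentile 96.7), and Hmga2 at 1.12, rank 610 (percentile 93.0). The Hmga2 rank comes from a mean of only 0.0268 UMI, with a UMI in 89 thinned cells and at most 2 in a cell. It therefore rests on few cells. Hmgb3 was at percentile 75.1, Hmgn3 at 27.1 and Hmgb1 at 22.8. Hmgn1 at 1.08 (percentile 2.33) was among the most even genes for its mean over all thinned cells. It was at percentile 35.1 inside low-cycle cells and at 2.46 inside G2/M-high cells, so its evenness did not hold in each range. Ranks of other members moved too. Hmgb1 was at percentile 4.50 inside low-cycle and 80.7 inside G2/M-high cells, and Hmgn3 at 33.7 and 76.9. Hmgn2 was at 0.960 (percentile 2.99), but from a mean of 0.0405 UMI, with at most 1 UMI in a cell. Its Fano factor ran from 0.960 to 1.01 over the processing settings, so its rank does not show evenness. Hmga1 fell under the minimum mean and was not ranked.

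The spread of the top pair differed within ranges. Inside G2/M-high cells Hmgb2 was at percentile 70.6, with a Fano factor of 1.15, and inside low-cycle cells at 91.9, also with a Fano factor of 1.15. Hmgn5 was at percentile 97.2 with a Fano factor of 1.29 inside low-cycle cells and at 78.5 with a Fano factor of 1.13 inside G2/M-high cells. Hmgn5 spread among low-cycle cells was thus as high in rank as among all cells. Up to 4 Hmgn5 UMIs were seen in 1 thinned cell, and 80.5% of cells had none, against 78.6% if counts were Poisson.

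**Figure D5:**
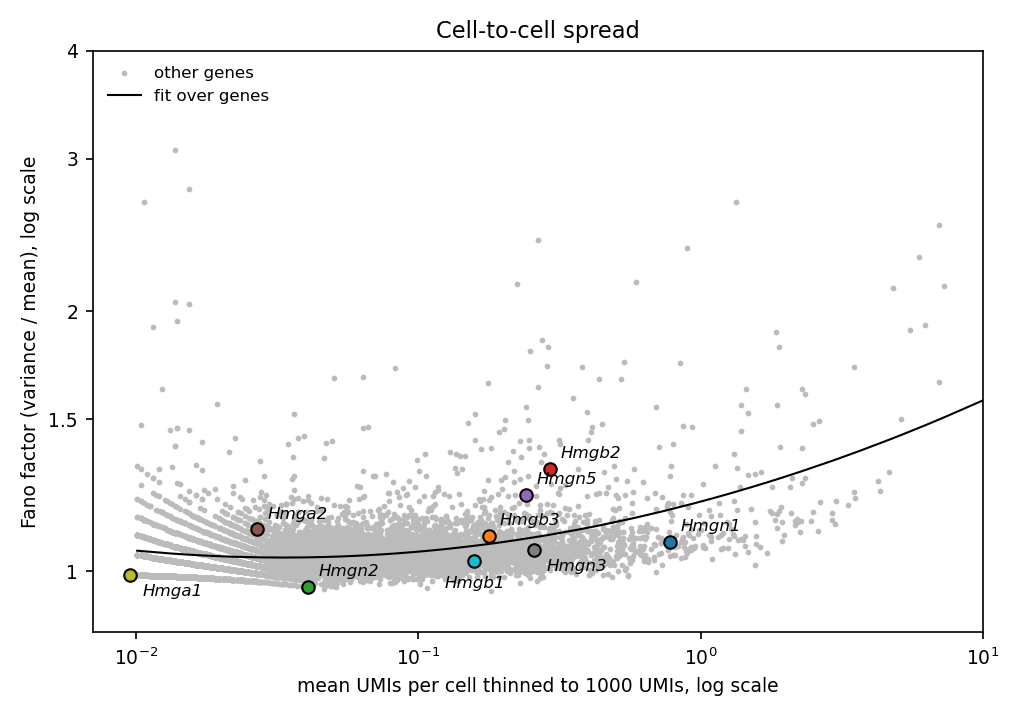
Fano factor (y axis, log scale) against mean UMIs per thinned cell (x axis, log scale) for all genes with a mean of at least 0.01 (grey), with the fitted curve (black) and the 9 HMG genes as labelled points. Hmgb2, Hmgn5 and Hmga2 lie above the curve at 1.31, 1.23 and 1.12, and Hmgn1 and Hmgn2 lie below it. The Hmga2 point rests on 89 cells with a UMI.

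The genes most like each member were taken as the 3 with the highest Pearson correlation over the same thinned cells, among 1006 genes with a mean of at least 0.2 UMI, as a description. For Hmgb2 these were Ube2c (r = 0.208), Prc1 (0.192) and Cenpa (0.191), which act in mitotic exit, the spindle midzone and the centromere. Ube2c and Cenpa are in the G2/M list that set the phase ranges, as is Anp32e, named below for Hmgn5. Their likeness is therefore not separate from the phase results. For Hmga2 they were Cd63 (0.119), Malat1 (0.109) and Tnc (0.102), and for Hmgn5 Anp32e (0.0750), Tuba1a (0.0729) and Arl6ip1 (0.0667). For Hmgb1, Hmgb3 and Hmgn1, Hmgb2 was among the 3, at 0.0620, 0.0652 and 0.0730. No correlation listed for the members other than Hmgb2 and Hmga2 was above 0.0878, that of Hmgn1 with Tubb5, and values this weak in sparse counts show no pairing of genes. Between members, Hmgb2 with Hmgn1 was the highest pair over all thinned cells at 0.0731.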

How the data were processed

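The values are UMI counts (whole numbers, a row for each gene and a column for each barcode), deposited by the authors from Drop-seq libraries without normalization. The genome build was mm10, per the submitters' processing notes. The sources used here do not name the aligner, the counter or the treatment of reads with more than 1 location. The 9 members, the gene lists and the comparisons were chosen with earlier results of these data known. The genes named are the members, rows of the same families, genes of the lists, copies found by sequence and the 3 genes most correlated with each member. Other genes are named where they lead a cluster. Barcodes with fewer than 500 genes or over 10% mitochondrial UMIs were left out. No doublet caller was applied and no doublets were removed. An alternative left out the deepest 5% of cells. Counts were summed over cells and given as CPM, with exact Poisson intervals for levels, Clopper-Pearson intervals for shares and conditional binomial intervals for ratios, all at 95%. Cells were clustered with scanpy 1.11.5 and leidenalg 0.10.2 (resolution 0.8, 2000 variable genes, 30 components, 15 neighbours). Of 19144 row names, 17959 matched GENCODE M21, whose transcripts were compared by BLAST. One result of that comparison is not reported here. Promoters came from RefSeq. The ratio rule was tested on simulated data.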

Additional observations from a re-analysis of the deposited data

How the results depend on the processing

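The count of HMG members past the fold was recomputed under 13 alternatives for G2/M-high against low-cycle cells, and in 11 of them it stayed within 1.5 times of 4. With a wider G2/M-high range it was 5, since Hmga2 was then past the fold as lower. It was 1 with a fold of 2, and 2 with phase shares and counts from cells thinned to 1000 UMIs, where Hmgb1 was at 1.49 (1.19 to 1.88) and Hmgb3 at 1.62 (1.31 to 2.01), and the cause was not tested. It was 2 rather than 1 for S-high cells when the phase cut was set at the top 10%, with Hmgb3 added to Hmgb2. When cells with at least 4 immature neuron markers took the place of the neuron-like cluster, 0 members were past the fold against all other cells rather than 1. Against low-cycle cells it was 2 rather than 0 (Hmgb2 higher, Hmga2 lower). By their marker lists, given above, those cells were mostly like the other cells. The cause of these shifts in the neuron-like results was not tested. The remaining settings for cells, totals, cuts and clusters gave counts within 1.5 times. The counts under the alternatives are given without the share of all genes past the fold in the same setting. A change in them is therefore not shown to be particular to the HMG members. Of the alternative ratios of single members, 417 stayed inside the interval first given and 15 did not, and no ratio past the fold changed direction. Hmgb2 ran from 13.2 to 14.6 in G2/M-high cells and Hmga2 from 0.36 to 0.60. Neuron-like values rest on 30 cells, and counts of 0 to 37 UMIs a member there leave wide intervals. No paired analysis was possible because the columns carry no sample or replicate number, and for the same reason no replicate could be left out.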
